A study of Mus musculus with 6 samples.

Results

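CD45-negative lung cells of Ccr2KO mice taken 40 days after silica aspiration were compared with the same cells of untreated Ccr2KO mice. The comparison rests on 2 of the 6 RNA samples of the study, Ccr2KO day 40 and Ccr2KO day 0, each 1 RNA pooled from 3 biological replicates and read on 1 one-colour array. Ccr2KO mice carried the B6.129S4-Ccr2tm1Ifc/J allele, which removes the chemokine receptor CCR2 in every cell, and the WT mice were C57BL/6J; all were 7 to 9 weeks old when the experiments began. Lungs were perfused and digested with enzymes, a Percoll gradient took out erythrocytes and silica particles, and CD45-negative cells, that is cells other than leukocytes, were sorted with magnetic labels. Values of WT day 0 and WT day 40, which share no array with the comparison, and of Ccr2KO day 28, which shares its untreated array, are set beside the results. With 1 pooled RNA per group there is no spread between animals, so every difference below compares 2 arrays and carries no p-value of its own.

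Inhaled crystalline silica is taken up by alveolar macrophages, persists in the lung and leads to inflammation, granuloma-like nodules and fibrosis, in which fibroblasts lay down collagen. CCR2 is a receptor for CCL2, CCL7 and CCL12 and brings monocytes from the blood into tissue. The cells profiled here, epithelium, endothelium, fibroblasts and smooth muscle, build and line the alveoli and are among the cells that can make these chemokines.

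A level below is the log2 signal of a gene's brightest probe over the 75th percentile of its array, so 0 is the brightness of that percentile, and a difference is day 40 minus day 0 on the log2 scale. Of 16620 genes well above background on at least 1 of the 2 arrays, 1696 (10.2%) were at least 2-fold higher at day 40 and 993 (5.97%) at least 2-fold lower, with a median difference of 0.02. In the authors' deposited table, which is not scaled between arrays, the same split was 662 higher and 1244 lower around a median of −0.28, so directions below are relative to each array's 75th percentile. The shares of 10.2% and 5.97% are given as the background for the counts of each gene list. The lists and their members were chosen with earlier results of these data known. A list count beside these shares is thus a description and not a test. Some genes, Grem1 and Saa3 among them, belong to more than 1 list, so the counts of different lists are not separate results. At 4-fold, 734 genes (4.42%) were higher and 214 (1.29%) lower, and at 8-fold 393 (2.36%) and 49 (0.295%). For 550 of the higher and 290 of the lower genes the dimmer array gave no signal above background, and their size is given as "at least". Counts of genes past 2-fold use the measured readings; as bounds, 515 of these 550 and 92 of these 290 reached 2-fold. Repeated spots of 1 probe had a median SD of 0.059 on the day 0 array and 0.068 on the day 40 array, which is measurement error of a spot and not the spread between mice. Of the genes with several kept probes, 404 were at least 2-fold different by the brightest probe. In 370 of these every probe lay in that direction, and in 277 every probe was at least 2-fold different in it. In cells taken from whole lung, fewer cells of a type and less RNA per cell cannot be told apart. The untreated array lay in row 1 of the slide and the day 40 array in row 2, so slide row and day cannot be told apart in this pair, nor in the WT pair.

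The day 40 array stood apart in 1 respect. On it, 1028 spots were well above background while no other array showed them, against 307 to 807 on the other arrays, and 655 of these were at least 4-fold brighter than on every other array, against 50 to 263 elsewhere. They held 277 of the 1696 higher genes, so 1419 remained higher when genes seen on 1 array were left out. The largest difference of a gene below background at day 0 was of this kind: Cacna1b, a neuronal calcium channel subunit, read −7.86 at day 0 and 1.38 at day 40 (at least 132-fold) and between −7.85 and −6.35 on the other 4 arrays. What makes these spots bright was not tested. Of the gene lists counted below, the basal and squamous epithelial list held 2 genes seen on the day 40 array alone (Dsg3 and Dsc3) and the ciliated list 1 seen on 1 array (Spag6), and their counts are given without them too.

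**Figure D1:**
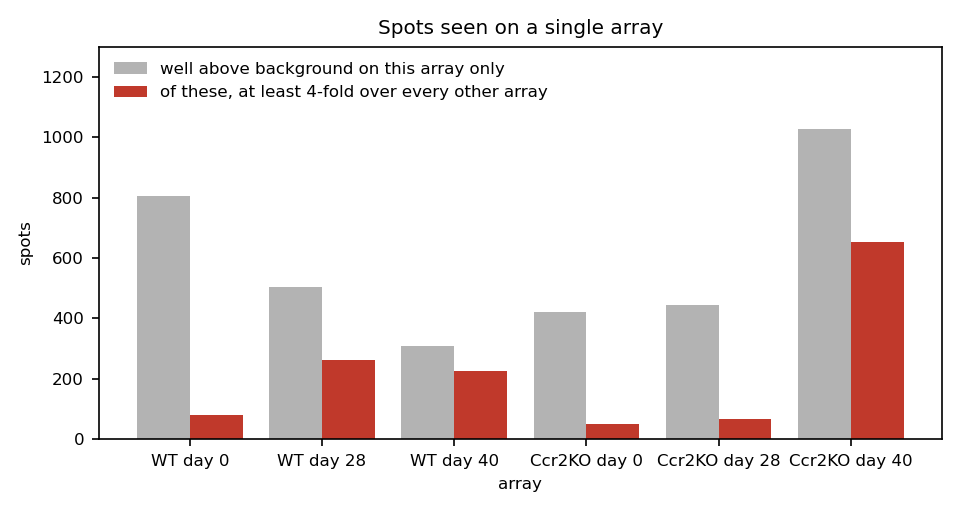
Number of spots well above background on 1 array only (grey) and of these at least 4-fold brighter than on every other array (red), for the 6 arrays. The Ccr2KO day 40 array had 655 of the second kind and the Ccr2KO day 0 array 50.

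The labels were checked on the targeted gene and on the sorting marker. Ccr2 read −5.07 in untreated Ccr2KO cells and −3.64 at day 40, above background on both arrays, and 0.09 and −1.70 in WT cells. No source used here says where its probe lies relative to the deleted part, so these values check the labels only in part. Ptprc, which encodes CD45, read 0.45 at day 0 and −0.61 at day 40, so its RNA was detected in both sorted populations. Of 15 pan-leukocyte genes, 0 were at least 2-fold higher and 1, Ptprc, at least 2-fold lower at day 40. The mean level of the 15 was 1.44 at day 0 and 1.0 at day 40 in Ccr2KO cells, 3.30 in Ccr2KO cells at day 28, and 2.42 and 1.43 in WT cells at day 0 and day 40. Markers of the labelled cells were bright on both arrays: the surfactant gene Sftpc of type 2 cells (8.90 and 9.07), the club cell secretoglobin Scgb1a1 (8.57 and 8.72) and the endothelial adhesion molecule Pecam1 (3.00 on both).

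Collagen genes of scar tissue were higher at day 40. Of 10 fibrillar collagens measured, 8 were at least 2-fold higher and none lower, with a median difference of 2.04 against 0.02 over all genes and 1.41 in WT. Col1a1, the main chain of type I collagen, went from 5.39 to 7.39 (4.0-fold) and Col3a1, type III collagen, from 5.43 to 7.48 (4.14-fold); in WT they differed by 1.39 and 1.43. Col11a1, a cartilage collagen, was below background at day 0 and read −0.12 at day 40 (at least 46.7-fold), and Col24a1 read −5.39 and −0.61. The 2 members within 2-fold were Col11a2 (0.83) and Col27a1 (−0.53), so not every fibrillar chain was higher.

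Other collagens divided. Of 26 network, FACIT and other collagens, 12 were at least 2-fold higher and 5 at least 2-fold lower, around a median of 0.79. Col10a1, the hypertrophic cartilage collagen, was at least 35.4-fold higher, and the basement membrane chain Col15a1 differed by 3.68. Among the basement membrane chains of type IV collagen, the common pair Col4a1 and Col4a2 differed by 1.90 and 1.87, while Col4a3, Col4a4 and Col4a6 were lower (−2.79, −2.30 and −1.03) and Col4a5 differed by −0.39. In the adult lung the Col4a3 and Col4a4 chains belong to the alveolar basement membrane. Of 15 laminins, nidogens and heparan sulfate proteoglycans 4 were higher, led by Nid2 (3.06) and Lama1 (2.78), and 1, the epithelial laminin chain Lama3 (−1.28), lower.

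Matrix glycoproteins had 16 of 29 members at least 2-fold higher and none lower (median 1.61, WT 1.18). Thbs4 and Thbs2, thrombospondins of scar and tendon, differed by 6.05 and 5.22, and Spp1, osteopontin, went from −0.69 to 2.89. Fibronectin, Fn1, read 6.11 and 7.91, a 3.47-fold difference beside 3.78-fold in WT. Ltbp2, which binds to elastic microfibrils, differed by 3.52. The small leucine-rich proteoglycans split, with 5 of 11 higher, among them Fmod (2.35), and 4 lower, among them Omd (−2.13). Collagen-processing enzymes had 8 of 20 higher, led by the crosslinking enzyme Loxl2 (1.42 to 4.52), and 1 lower, the procollagen enhancer Pcolce2 (−2.61).

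Enzymes that cut matrix were higher together with their inhibitors. Of 14 matrix metalloproteinases measured, 8 were at least 2-fold higher and none lower (median 1.32). Mmp10, stromelysin 2, was at least 66.5-fold higher, and Mmp13, interstitial collagenase of rodents, went from −4.58 to 0.44. Timp1, which blocks metalloproteinases, read 2.51 and 5.89 in Ccr2KO cells (10.5-fold) and differed 10.2-fold in WT. Of the 11 inhibitors listed 5 were higher and 1 lower, and Timp2, Timp3 and Timp4 were among the 5 within 2-fold (0.23, 0.02 and 0.13).

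The genes that mark activated fibroblasts held the largest difference of any gene measured on both arrays. Grem1, a secreted antagonist of bone morphogenetic proteins, read −4.67 at day 0 and 4.86 at day 40, a 742-fold difference, with 180-fold in WT. Of 17 fibroblast activation genes, 13 were at least 2-fold higher and none lower (median 2.24, WT 1.49). Lrrc15, a surface protein of wound and tumour fibroblasts, was at least 106-fold higher, Tnc, tenascin C, went from −2.73 to 0.78, and Postn, periostin, differed by 2.65 beside 1.37 in WT. Contractile genes differed less: 4 of 15 were at least 2-fold higher (median 0.34), among them smooth muscle actin, Acta2 (5.21 to 6.89), and Actg2 (1.81). None of the 15 was lower, and in WT 0 of the 15 passed 2-fold.

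Genes of the resident alveolar fibroblast were lower. Of 18, 9 were at least 2-fold lower and 0 higher (median −0.93, WT −0.63). Slc7a10, an amino acid transporter and the lowest difference of any gene measured on both arrays, read 1.98 at day 0 and −4.01 at day 40 (63.7-fold lower, 9.32-fold in WT). Inmt, a methyltransferase of lung stroma, went from 8.24 to 4.88, Npnt, a matrix ligand of integrin alpha 8, differed by −2.33, and Tcf21, a mesenchymal transcription factor, by −2.24 beside −0.74 in WT.

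**Figure D2:**
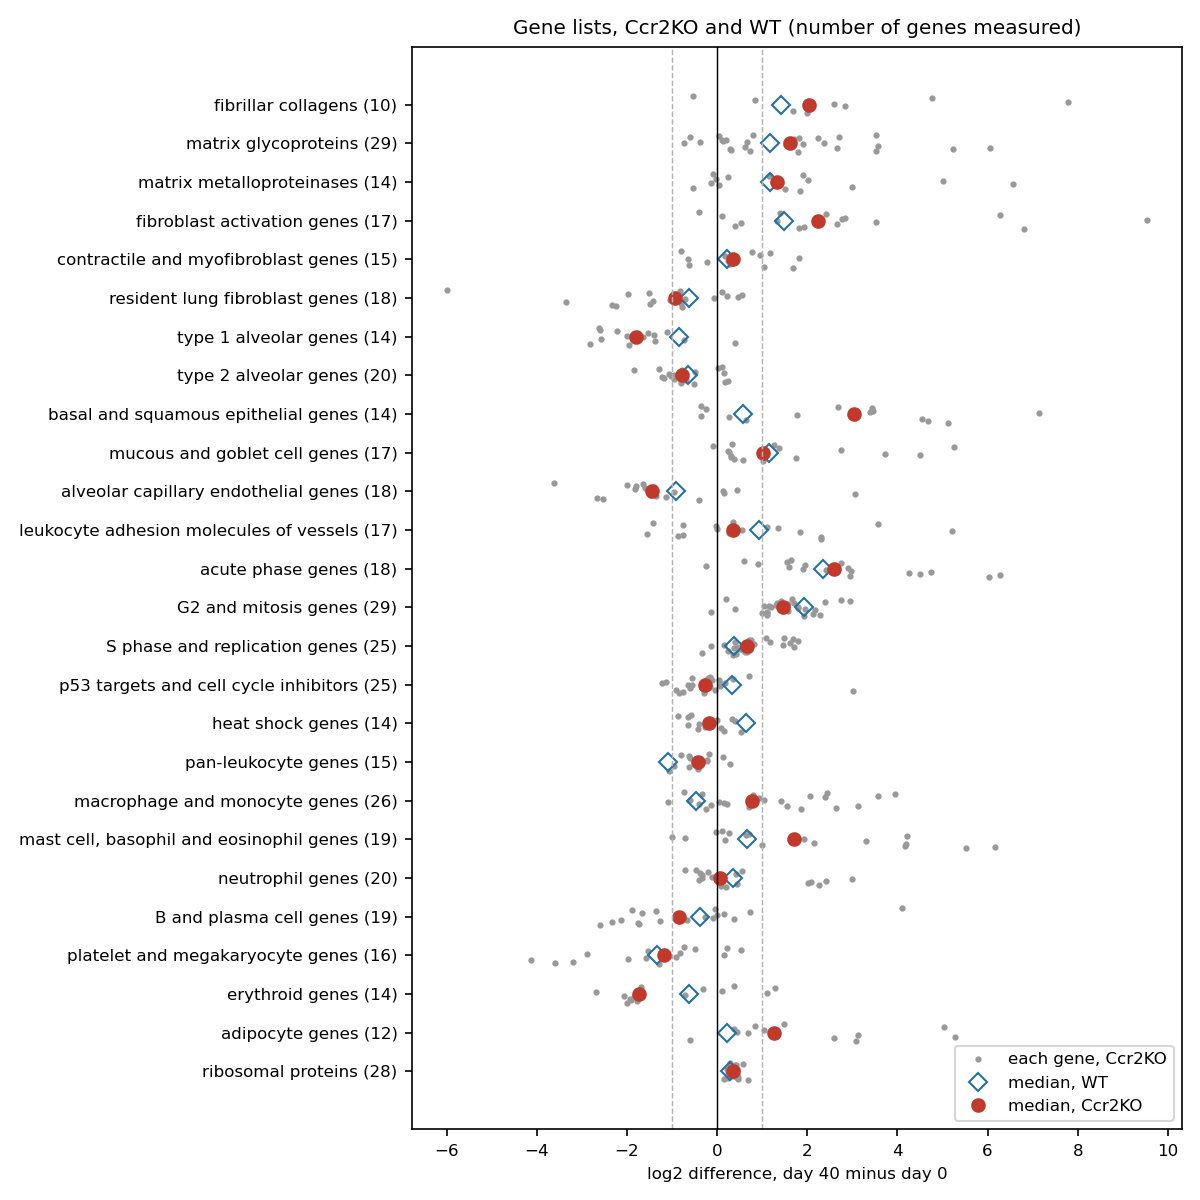
Log2 difference between day 40 and day 0 for 26 gene lists; grey points are single genes in Ccr2KO, red circles list medians in Ccr2KO and open blue diamonds list medians in WT, with dashed lines at 2-fold. Fibrillar collagens, fibroblast activation genes, acute phase genes and mitosis genes lie to the right of 0, and type 1 alveolar, alveolar capillary, platelet and erythroid genes to the left.

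Among signalling genes, several secreted ligands and antagonists were higher. In the TGF-beta and activin list, 5 of 30 genes were at least 2-fold higher and 1 lower: the activin antagonist Fst differed by 4.10, the activin chains Inhba and Inhbb by 2.76 and 2.56 and Fstl1 by 2.07, while the receptor Acvrl1 was lower (−1.02). The ligands Tgfb1, Tgfb2 and Tgfb3 were within 2-fold (0.42, 0.37 and 0.73). Among 15 Wnt ligands 5 were higher and 3 lower: Wnt10a, from −5.04 to 1.79 (113-fold), and Wnt6 (3.35) were at the high end, and Wnt7a (−2.90), Wnt3a (below background at day 40, as a bound at least 1.96-fold lower) and Wnt2 (−1.48), a ligand of resident lung mesenchyme, were lower. Of 22 Wnt antagonists and feedback genes 7 were higher, 4 lower and 11 within 2-fold (median 0.44). The secreted antagonists Frzb (at least 51.8-fold), Dkk2 (3.85) and Sfrp1 (2.84) were among the higher ones, and Dkk1, below background at day 40, among the lower. In the BMP list 4 of 24 were higher and 4 lower: apart from Grem1 the higher ones were Bmp7, Bmper and Bmpr1b (1.03 to 1.25), and the lowest was the antagonist Chrdl1 (−1.86). All 15 Hedgehog genes lay within 2-fold, and so did 16 of 17 Notch genes. Among growth factors, Igf1 went from 0.99 to 4.50, Pdgfc differed by 2.14 and the epidermal growth factor family member Ereg by 3.71, while Igfbp2, a type 1 cell product, differed by −2.23 with 0.02 in WT.

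The gas-exchange epithelium gave lower values. Of 14 type 1 alveolar genes, 12 were at least 2-fold lower and none higher, with a median of −1.80 in Ccr2KO and −0.84 in WT, where 4 were lower. Hopx, a transcriptional cofactor of type 1 cells, went from 5.80 to 2.97, Spock2, a matrix proteoglycan, from 2.12 to −0.51 and the sodium channel subunit Scnn1g from −0.03 to −2.62. Ager, the type 1 cell receptor RAGE, read 4.63 and 2.66 (3.90-fold lower) beside 4.07 and 3.23 in WT. Whether the 2 genotypes differed was not tested, since each has 1 array a day. Pdpn, which lymphatic endothelium and fibroblasts also make, was the only member above 0 (0.40).

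Type 2 cells, which make surfactant, differed less. Of 20 genes, 6 were at least 2-fold lower and none higher (median −0.79). Chia1, an acidic chitinase, differed by −1.86, the lipid-remodelling enzyme Lpcat1 by −1.28 and the transcription factor Etv5 by −1.21. The surfactant proteins Sftpc and Sftpd were within 2-fold (0.17 and 0.25). Outside the list, Scel, a protein of epithelial envelopes, differed by −3.74, and Acoxl, a relative of peroxisomal acyl-CoA oxidase, went from 3.22 to −0.64; both were among the 15 lowest differences measured on both arrays.

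Airway and squamous keratin genes went the other way. Of 14 basal and squamous epithelial genes, 9 were at least 2-fold higher and none lower, with a median of 3.04 in Ccr2KO and 0.56 in WT. Krt5, the basal cell keratin, read −2.46 and 2.65 (34.6-fold) in Ccr2KO and −2.02 and 0.37 in WT, and its 2 probes gave differences of 5.11 and 5.70. Krt14 and Krt17 differed by 4.67 and 4.54 in Ccr2KO, Serpinb5 was at least 34.4-fold higher, and the water channel Aqp3 differed by 3.44. The basal cell transcription factor Trp63 (−0.35) and the squamous protein Ivl (−0.25) were within 2-fold. Without Dsg3 and Dsc3, which were seen on the day 40 array alone, 7 of 12 were higher. The medians of 3.04 and 0.56 include these genes, which were below background on both WT arrays. On the Ccr2KO day 28 array, which shares the untreated array, the list's median difference was 0.77.

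Secretory epithelium showed 9 of 17 mucous and goblet cell genes higher and none lower (median 1.01, WT 1.15). Dmbt1, a mucosal scavenger glycoprotein, went from −3.10 to 2.16 and Itln1, a lectin, from −3.72 to 0.77. Tff1, a trefoil peptide, was at least 11.5-fold higher. Clca1, a goblet cell product, differed by 0.32 in Ccr2KO (1.93 to 2.25) and 5.40 in WT (−2.42 to 2.98), and the mucosal glycoprotein Gp2 by 1.38 (1.19 to 2.57) and 4.49 (−2.25 to 2.24). For both, the day 40 levels of the genotypes lay closer together than the untreated levels. Club cell genes were mixed (3 of 12 higher, 2 lower), with Scgb1a1 at 0.15 and the glutathione transferase Gsta3 at −2.05. Ciliated cell genes were nearly level, with 20 of 21 within 2-fold, and 20 of 20 without Spag6.

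In vessels, alveolar capillary genes were lower and pan-endothelial genes were not. Of 18 alveolar capillary genes 12 were at least 2-fold lower and 1 higher (median −1.44, WT −0.91), while 16 of 20 pan-endothelial genes were within 2-fold (median −0.04). The endothelin receptor Ednrb, which marks aerocytes, went from 2.70 to 0.16, Fibin differed by −2.66, and Rprml by −3.62. The exception was Aplnr, the apelin receptor of general capillary cells, which went from −1.35 to 1.71 (1.05 to 1.76 in WT), while its ligand Apln differed by −1.49. Of 20 arterial and venous endothelial genes 4 were higher, 16 within 2-fold and none lower (median −0.07). Single genes of venules and of leukocyte homing were higher: Ackr1, the venular chemokine-binding receptor, differed by 3.58, Selp by 2.30, Sele by 2.30 and Glycam1, a ligand of L-selectin on high endothelial venules, was at least 24.5-fold higher. Of the 17 leukocyte adhesion molecules of vessels, 7 were higher and 2 lower. Lymphoid stroma genes had 8 of 15 higher and 2 lower, including Cxcl13, the B cell attractant (a difference of 3.22), and the follicular receptor Cr2 (−2.14).

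Ccl2 and Ccl7, which encode ligands of the missing receptor, were higher in Ccr2KO cells after silica than in untreated Ccr2KO cells. Ccl7 went from 2.14 to 4.68 and Ccl2 from 3.58 to 5.83, while the ligand gene Ccl12 was within 2-fold (0.62). The chemokine gene Ccl8 went from −1.16 to 4.17 (40.2-fold) beside −1.76 and 0.70 in WT (5.48-fold). Leukocyte genes were also detected in these sorted cells, and the part of carried-over leukocytes in these chemokine values was not tested. Of 13 monocyte-attracting chemokines and receptors 5 were at least 2-fold higher and 1, the colony-stimulating factor receptor Csf1r (−1.09), lower. In WT 4 of the 13 were higher and 3 lower (median −0.11, Ccr2KO 0.62). Of 13 neutrophil chemokines and colony-stimulating factors 5 were higher and none lower: Cxcl5 went from −0.10 to 4.89 and the granulocyte growth factor Csf3 from −4.03 to −0.09, a difference of 3.94; in WT it was below background at day 0 and read 0.30 at day 40. Among lymphocyte chemokines 6 of 13 were higher, among them the interferon-inducible Cxcl9 (3.30, WT 5.62).

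Acute phase genes were higher almost throughout. Of 18, 15 were at least 2-fold higher and none lower (median 2.59, WT 2.35). The serum amyloid genes Saa3 (1.92 to 8.20) and Saa1 (0.97 to 6.99) differed 77.8-fold and 65.1-fold, and the orosomucoids Orm1 and Orm2 by 4.26 and 4.74. Near-identical serum amyloid copies may share probe signal. In the complement list 7 of 22 were higher and 2 lower, with 1 gene far out at either end: Cfd, factor D or adipsin, went from −3.94 to 1.34 (39.0-fold, 2.22-fold in WT), and C7, a subunit of the membrane attack complex, from 1.32 to −2.77 (17.0-fold lower, 2.48-fold in WT). Of 24 type I interferon response genes 22 were within 2-fold and 2 higher, and of 20 interferon-gamma response genes 15 were within 2-fold, 4 higher, up to 3.34, and 1 lower (−1.20). All 15 genes of MHC class I presentation lay within 2-fold, 14 of them above 0.

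Proliferation genes were higher as a group. Of 29 G2 and mitosis genes 25 were at least 2-fold higher and none lower (median 1.46, WT 1.92), while 8 of 25 S phase and replication genes were (median 0.66). Mki67, the proliferation antigen, read 0.32 and 1.77, the topoisomerase Top2a −2.94 and −0.76 (4.52-fold), the mitotic kinase Cdk1 −2.84 and −0.71 (4.38-fold), and the kinetochore subunit Nuf2 −5.12 and −2.37. Cdkn2a, a cell cycle inhibitor, went from −1.04 to 1.97 (8.07-fold). Promoters of such genes often carry a CCAAT box and a CHR element, so both were searched in the RefSeq promoter windows of GRCm38.p6, 250 bases before to 50 after each start (CCAAT, and TTTGAA or TTCGAA, on both strands; matches may overlap). RefSeq windows were found for 24 of the 29 genes, with 25 windows. Of these 80.0% held a CCAAT box, against 37.4% of all 32851 windows, 72.0% a CHR element against 19.2%, and 68.0% both against 7.52%. A match is a description of the letters and not a binding site. The shares cover every list member with a window, whatever its difference, so they describe the list and not the comparison of the arrays. Windows to show were taken only from genes measured on both arrays, and windows on 1 chromosome were left out. Of the remaining genes holding both motifs, the windows of the 3 with the largest differences are shown with every match in capitals, 5′ to 3′ along the gene: Top2a at chr11:99024140-99024439 on the minus strand (6 CCAAT and 4 CHR matches), Cdk1 at chr10:69352863-69353162 on the minus strand (3 and 2) and Spc25 at chr2:69206164-69206463 on the minus strand (2 and 1).
Top2a: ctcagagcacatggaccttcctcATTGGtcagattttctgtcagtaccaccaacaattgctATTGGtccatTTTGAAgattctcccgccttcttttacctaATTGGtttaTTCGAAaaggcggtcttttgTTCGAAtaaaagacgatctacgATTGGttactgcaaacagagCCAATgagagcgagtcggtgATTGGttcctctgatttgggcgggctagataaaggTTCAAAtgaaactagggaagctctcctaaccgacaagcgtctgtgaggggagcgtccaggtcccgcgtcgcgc
Cdk1: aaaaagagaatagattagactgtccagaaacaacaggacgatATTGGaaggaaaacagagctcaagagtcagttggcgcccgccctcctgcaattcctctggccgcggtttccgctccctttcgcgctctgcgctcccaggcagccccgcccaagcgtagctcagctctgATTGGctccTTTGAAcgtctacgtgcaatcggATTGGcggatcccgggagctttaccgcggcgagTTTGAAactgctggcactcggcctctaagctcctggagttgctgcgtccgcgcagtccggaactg
Spc25: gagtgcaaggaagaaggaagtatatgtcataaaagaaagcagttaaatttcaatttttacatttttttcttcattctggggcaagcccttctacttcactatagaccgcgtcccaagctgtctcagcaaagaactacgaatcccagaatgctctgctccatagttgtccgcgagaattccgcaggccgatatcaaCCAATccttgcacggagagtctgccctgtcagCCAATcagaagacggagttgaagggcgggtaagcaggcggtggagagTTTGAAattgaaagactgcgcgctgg
For the acute phase genes the NF-kB consensus was in 1 of 15 windows (6.67%), against 8.46% of all windows.

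The p53 and heat shock lists had lower median differences in Ccr2KO than in WT, which was not tested. Mean levels of the p53 list were 2.87 at day 0 and 2.68 at day 40 in Ccr2KO, and 2.01 and 2.59 in WT. Those of the heat shock list were 4.88 and 4.705 in Ccr2KO, and 4.09 and 4.84 in WT. In both lists the genotypes lay further apart on the untreated arrays than at day 40. Of 25 p53 targets and cell cycle inhibitors, 1 (Cdkn2a) was at least 2-fold higher and 2 lower in Ccr2KO (median −0.27), against 8 higher and 2 lower in WT (median 0.32). Gdf15, a stress-induced cytokine, went from 4.98 to 3.84 in Ccr2KO and from 1.90 to 4.44 in WT, so the 2 untreated arrays differed as well. The cyclin-dependent kinase inhibitor Cdkn1a differed by −0.85 and 1.08, and the receptor Eda2r read −4.04 and −4.25 in Ccr2KO and was below background on the untreated WT array. Cdkn1a also started higher in Ccr2KO (4.57) than in WT (2.99). All 14 heat shock genes lay within 2-fold in Ccr2KO (median −0.18, WT 0.64), with the inducible chaperone Hspa1a going from 4.36 to 4.88 in Ccr2KO and from 1.32 to 5.02 in WT. NRF2 antioxidant genes were within 2-fold in 22 of 24 (median 0.19), and unfolded protein and integrated stress genes in 25 of 26 (median 0.23). Hypoxia and glycolysis genes had 5 of 26 higher and 1 lower (median 0.58), led by Egln3 (2.67) and Ankrd37 (2.54). Of 20 genes of metal handling 9 were higher and 1 lower, among them the iron regulator Hamp (at least 4.72-fold) and lactoferrin, Ltf (2.75). Phase I and II detoxification genes had 10 of 28 lower and 2 higher, Cyp1b1 (3.50) and Cyp7b1 (1.68). All 28 ribosomal protein genes were above 0 by 0.15 to 0.68 (median 0.35, but 0.06 in the unscaled deposited table), and all 29 genes of oxidative phosphorylation were within 2-fold.

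Myeloid and granulocyte genes were measured in these CD45-negative cells too, and they are set beside the pan-leukocyte genes, with a median of −0.42 and 1 of 15 lower in Ccr2KO and a median of −1.09 and 8 of 15 lower in WT. Of 26 macrophage and monocyte genes 11 were at least 2-fold higher and 1 lower in Ccr2KO (median 0.78), while in WT 5 were higher and 12 lower (median −0.47). Marco, a scavenger receptor of alveolar macrophages, went from −2.75 to −0.11 in Ccr2KO and from 0.60 to −2.60 in WT. The protease Ctsk went from 2.29 to 6.24, and Spp1 and Fabp4, made by macrophages and by other cells, differed by 3.58 and 3.12. The list's mean level was 0.12 and 1.15 in Ccr2KO and 1.18 and 0.58 in WT. What part carried-over leukocytes have in these values was not tested. Mast cell, basophil and eosinophil genes had 10 of 19 higher and 1 lower (median 1.70, WT 0.66). The mast cell proteases Mcpt4 and Cma1 went from −2.61 to 1.56 (18-fold, 1.73-fold in WT) and from −4.74 to −0.55 (18.3-fold, 3.30-fold), Mcpt2 was at least 52.4-fold higher, and the carboxypeptidase Cpa3 differed by 3.30. The mast cell receptor Kit was within 2-fold (0.16). The proteases are near-identical copies in part and may share probe signal.

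Among other blood cell lists, B and plasma cell genes had 9 of 19 lower and 1 higher (median −0.84), with Ms4a1, a B cell surface protein, going from 0.98 to −1.37. Platelet genes had 9 of 16 lower and none higher (median −1.18, WT −1.33): Ppbp went from 1.78 to −1.80 and Gp9 from 0.26 to −2.93. Erythroid genes had 8 of 14 lower and 2 higher, with the globin Hbb-bt going from 4.34 to 2.40. T and NK cell genes were within 2-fold in 22 of 23, and neutrophil genes in 15 of 20. The other 5 neutrophil genes were higher, among them Mmp8 (2.99) and Mpo (2.25), and none was lower (median 0.06). Adipocyte genes had 7 of 12 higher and none lower (median 1.27, WT 0.21). They included Cfd and Car3, the latter at least 25.4-fold higher, and Adipoq, the defining adipokine, below background at day 0 and at −3.08 at day 40 (at least 5.98-fold).

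Set against WT on its own 2 arrays, where 1297 genes (7.8%) were at least 2-fold higher and 998 (6.0%) lower, the Ccr2KO comparison shared 889 of its higher genes (52.4% of the Ccr2KO set and 68.5% of the WT set) and 514 of its lower genes (51.8% and 51.5%). Of the 1696 higher genes 86.2% also lay above 0 in WT, and of the 993 lower genes 92.2% lay below 0. Across the 16620 genes, which are not independent replicates, Pearson's r between the 2 sets of differences was 0.64 and Spearman's rho 0.66. At least 2-fold in opposite directions were 63 of the higher and 20 of the lower genes. Measured above background on all 4 arrays were 13 of these, named after their values were seen: Marco, Atp6v0d2, Hpcal4, Chil3, Ccr2, Ccl6, Gpr35 and Aoah were higher in Ccr2KO and lower in WT, and Rufy4, Fbp1, Gdf15, Ccdc184 and Itpkc the reverse. Marco, Atp6v0d2, Chil3, Ccl6, Ccr2 and Aoah are genes of macrophages or monocytes.

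**Figure D3:**
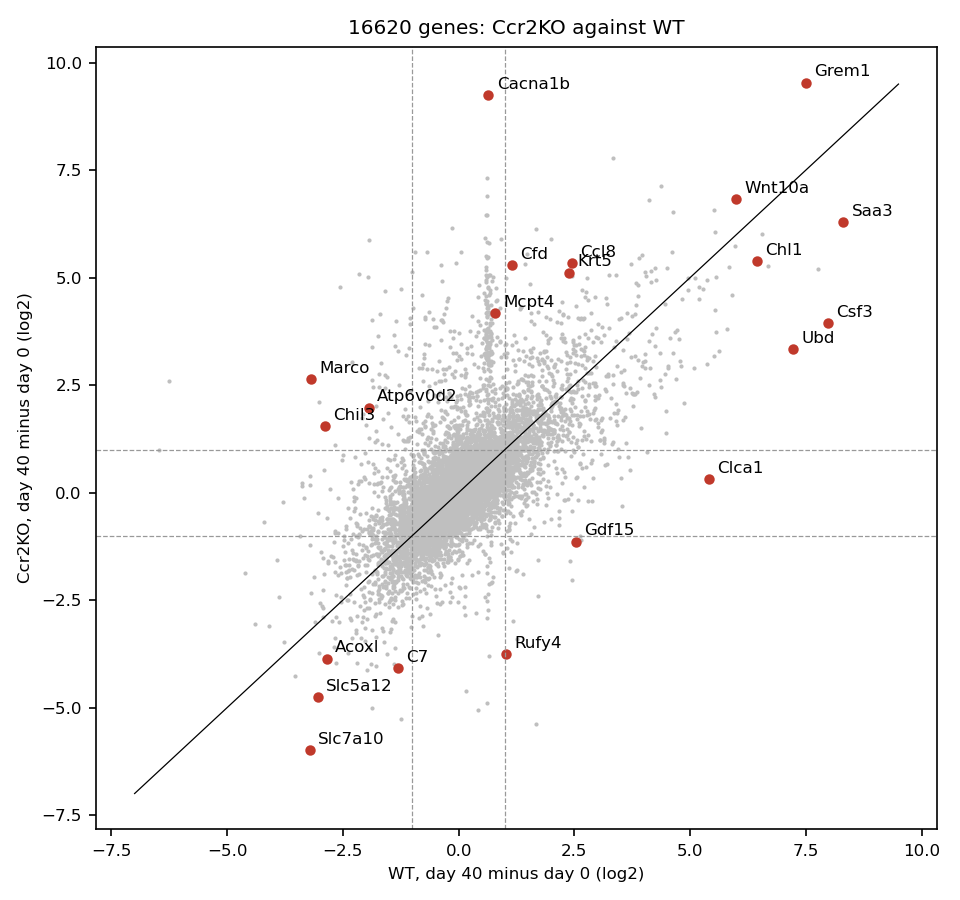
Difference between day 40 and day 0 in Ccr2KO against that in WT for 16620 genes; the line marks equal differences and the dashed lines 2-fold. Most genes lie along the line, Grem1 is at its top right, Marco and Gdf15 lie off it on opposite sides, and an upright band of genes, Cacna1b at its top, was high in Ccr2KO and mostly below background on both WT arrays.

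**Figure D4:**
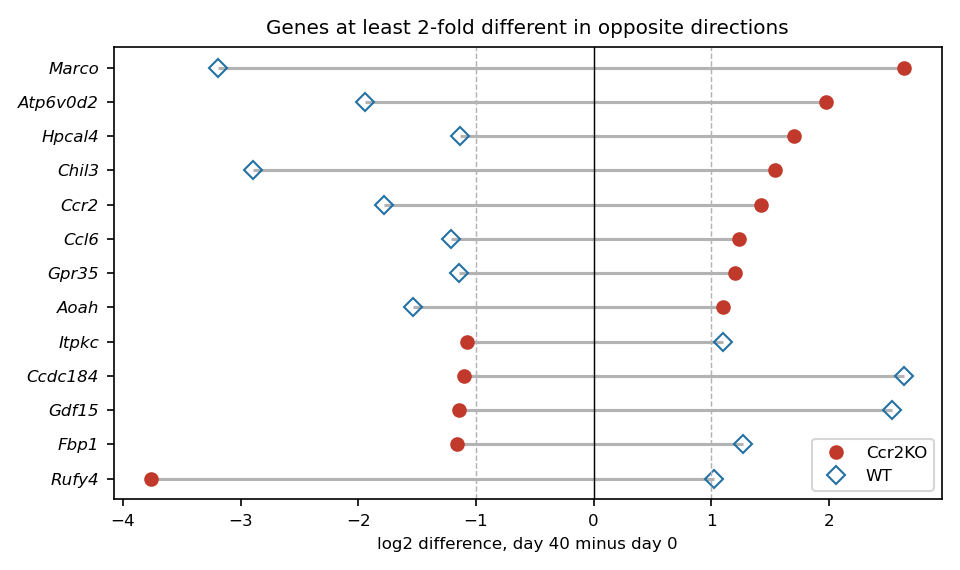
Day 40 minus day 0 in Ccr2KO (red circles) and WT (open blue diamonds) for the 13 genes at least 2-fold different in opposite directions and above background on all 4 arrays. Marco spans from −3.20 in WT to 2.64 in Ccr2KO.

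The day 28 array of Ccr2KO gives an earlier time against the same untreated array, so its differences are not independent and are only set side by side. Grem1 read 4.07 at day 28 and 4.86 at day 40, Ccl8 2.76 and 4.17, Krt5 0.99 and 2.65, Slc7a10 −1.59 and −4.01, and Cfd −0.64 and 1.34. Mki67 read 2.43 and 1.77, and Marco 0.42 and −0.11. On the day 28 array 1455 genes (8.75%) were at least 2-fold higher than on the untreated array and 1072 (6.45%) lower. Leukocyte lists read differently on the 2 days: pan-leukocyte genes had a median difference of 1.82 at day 28 and −0.42 at day 40, and neutrophil genes 2.69 and 0.06. Ptprc read 2.14 at day 28.

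**Figure D5:**
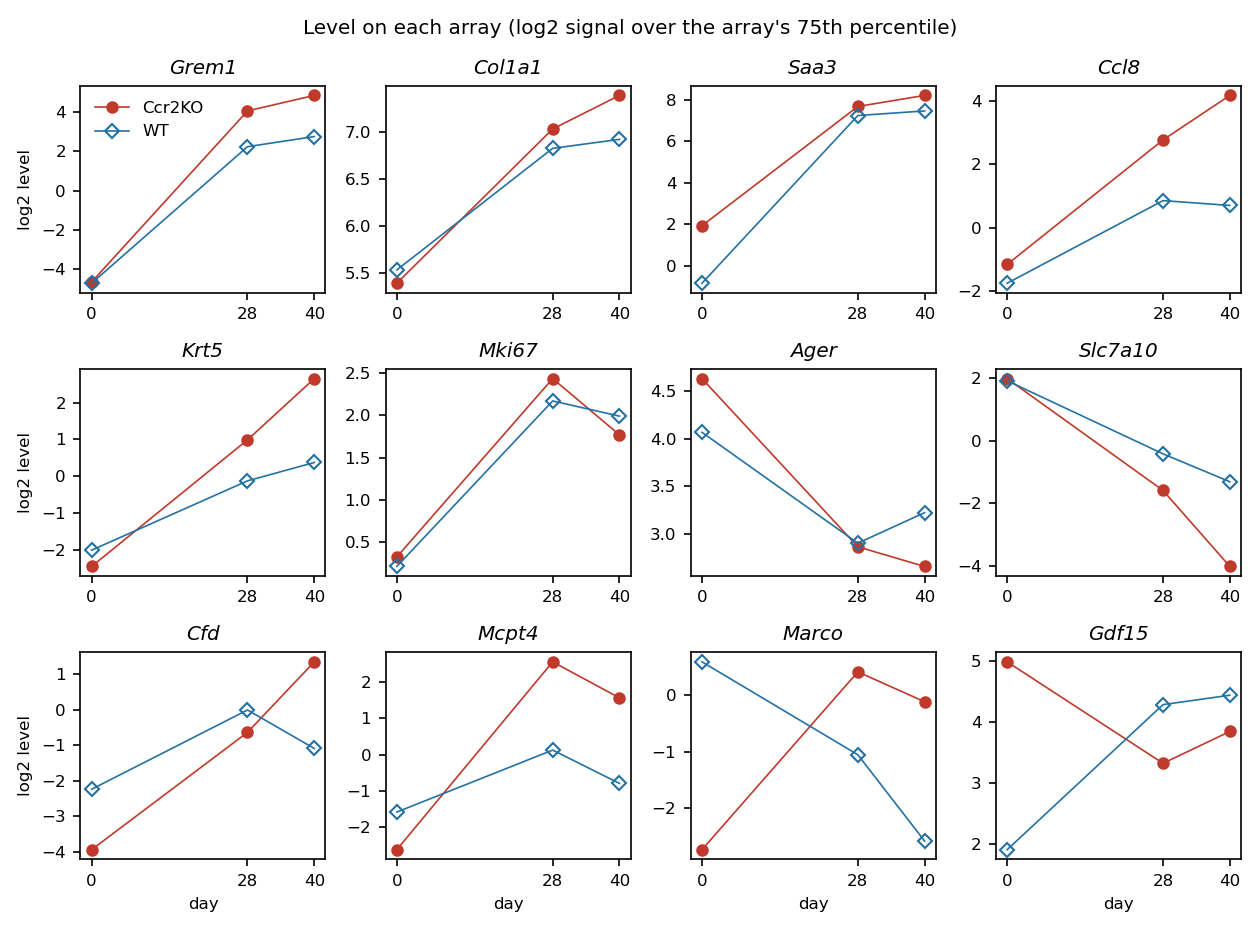
Level of 12 genes on each of the 6 arrays (log2 signal over the 75th percentile of the array) by day, Ccr2KO in red and WT in blue; lines only join the arrays of a genotype. Grem1, Col1a1, Ccl8 and Krt5 are highest on the Ccr2KO day 40 array, and Slc7a10 and Ager lowest.

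A test was possible only over both genotypes. In limma's additive fit of day and genotype on all 6 arrays, which has 2 residual degrees of freedom and treats WT and Ccr2KO as replicates of a day, 1235 genes (7.43%) passed as higher at day 40 and 924 (5.56%) as lower after Benjamini-Hochberg adjustment. These p-values measure only the spread among these 6 pooled arrays. With 1 array per day and genotype, that spread is how far the day differences of WT and Ccr2KO depart from each other. A gene that differed by unlike amounts in the genotypes therefore has a larger SE. The passing genes held 861 of the 1696 genes at least 2-fold higher in Ccr2KO and 543 of the 993 lower ones. The fit includes the 2 Ccr2KO arrays that define these counts, so part of this overlap is built in. Passing genes included Grem1 (8.51 ± 0.56 SE, adjusted p = 0.0165), Timp1 (3.37 ± 0.16 SE, adjusted p = 0.0158) and Nuf2 (3.04 ± 0.18 SE, adjusted p = 0.0165), all higher on both genotypes' day 40 arrays than on their day 0 arrays. Krt5 (3.75, adjusted p = 0.0469) and Ccl8 (3.89, adjusted p = 0.048) passed narrowly. Cfd (3.22, adjusted p = 0.133), C7 (−2.70, adjusted p = 0.0926) and Ager (−1.40, adjusted p = 0.0603), each with 1 direction in both genotypes, did not pass, nor did Marco (−0.28, adjusted p = 0.915). By list, 25 of 29 G2 and mitosis genes, 14 of 18 acute phase genes, 7 of 10 fibrillar collagens and 12 of 17 fibroblast activation genes passed as higher, and 7 of 14 type 1 alveolar genes as lower. A fit with slide row as a block or without 1 array has 1 residual degree of freedom. Leaving out either day 28 array gives the same fit of day 40 against day 0. With slide row as a block 0 genes passed (1702 had an unadjusted p under 0.05), and 0 passed without the WT day 28, the Ccr2KO day 28 or the Ccr2KO day 40 array (4401, 4401 and 3833).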

How the data were processed

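Each sample is 1 Cy3 array of design 028005. Per the file headers, background-subtracted and detrended intensity values came from Feature Extraction 11.0.1.1 (protocol GE1_1100_Jul11, scanner G2600D). The deposited value table holds the log2 of this intensity, unscaled between arrays (largest difference 5e-09), and R 2.15.1 is named in the submitters' processing notes.

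From the 59305 spots per array that are not controls, outlier spots (109 to 195) were set to missing, repeated spots averaged and log2 values lowered by the array's 75th percentile. No spot was saturated. Of 55681 probes, 27509 matched 1 symbol by RefSeq accession (GRCm38.p6 gene set), and each gene was read from its brightest probe if well above background on at least 1 Ccr2KO array compared. "At least" folds set the dim array at the higher of its own signal and the lowest signal well above background. limma 3.58.1 (R 4.3.3) gave the additive fit. The fit was tested on simulated data, in which noise was independent between arrays and each added change was the same in both genotypes. Effects of slide row and changes in 1 genotype were thus not covered. The 75th percentile signal was 969 (day 0) and 793 (day 40), and 63.5 and 60.5% of probes were above background. The number of arrays limits the precision.

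Genes named are the 15 largest differences each way measured on both arrays, the 8 largest bounds each way, up to 4 genes per list and some chosen by name, by a fixed rule; other list members were named after their values were seen, to say which lay past or within 2-fold. The gene lists and members were chosen with earlier results of these data known. The header columns lacked the mean signal, so the normexp alternative used the median signal. Some named items are not reported here.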

Additional observations from a re-analysis of the deposited data

Results flagged for a closer look

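These 7 genes, among those named by the fixed rule, read at least 2-fold one way in Ccr2KO and at least 2-fold the other way in WT. With 1 array per group and day, none of these differences between the genotypes was tested. The macrophage receptor Marco differed by 2.64 in Ccr2KO and −3.20 in WT, and the osteoclast and macrophage proton pump subunit Atp6v0d2 by 1.98 and −1.94. The targeted gene Ccr2 differed by 1.43 and −1.78, from a lower untreated level in Ccr2KO. In the other direction, Gdf15 differed by −1.14 in Ccr2KO and 2.53 in WT, and Rufy4 by −3.76 and 1.02. Resp18 differed by −2.99 and 1.16 and was below background on the Ccr2KO day 40 array, so that its Ccr2KO size is at least 1.94-fold lower. Il1bos, antisense to another gene, differed by −5.39 in the readings, as a bound at least 9.30-fold lower, since it was below background on the Ccr2KO day 40 array. Its WT difference of 1.68 compares 2 readings that were both below background and shows no direction.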

How the results depend on the processing

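The counts of genes at least 2-fold higher and lower in Ccr2KO (1696 and 993) moved to 949 and 520 with normexp background correction, to 2771 and 2038 at 1.5-fold and to 734 and 214 at 4-fold. The higher count moved to 1009 when genes had to be above background on all 6 arrays and to 662 in the authors' deposited table. That table is not scaled between arrays, its median gene differed by −0.28, and 34.7% of its 2-fold genes were higher, against 63.1% in the scaled values. Genes seen on 1 array were left out as a choice made after seeing the data, leaving 1419 and 935. The 2159 genes passing the additive fit became 3608 with normexp, 6117 in the deposited table, 1236 without a filter, 3460 with an intensity trend and robust prior, and 0 with slide row as a block. Leaving out 1 array in turn gave 0 to 995. The fit with slide row as a block and each fit without 1 array had 1 residual degree of freedom, against 2 in the main fit. Without either day 28 array the other fits itself, so both of these fits are the same for day 40 against day 0. Why the counts moved was not tested further. All 16 list medians past 2-fold kept their sign in every setting, and 11 stayed past 2-fold in all of them. Of 291 named genes past 2-fold, 247 stayed so wherever they could be computed, and 1 turned, Spag6 (0.0178 with normexp, −1.73 without). No paired analysis was possible because each group has 1 array. For the same reason no array could be left out of the Ccr2KO counts. Dim probes are limited by background: 558 genes were above it only at day 40 and 741 only at day 0.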
